A study of Homo sapiens with 9 samples.

Results

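The genes described here encode the proteins of the cytosolic ribosome. They were taken from the table of messenger RNAs by symbol, as every symbol that begins with RPL or RPS followed by a number together with RPLP0, RPLP1, RPLP2 and RPSA, with the RPS6K kinases left out. The rule found 91 of the 19976 genes of the table. Of these, 43 encode proteins of the large subunit, 31 encode proteins of the small subunit and 3 encode the acidic stalk proteins, and these 77 genes are called core members below. The other members were 8 paralogs with a symbol of their own (for example RPS27L beside RPS27), 3 readthrough transcripts that join a ribosomal protein gene to its neighbour, 2 Y-linked genes whose values are not given, and RPS19BP1, which the symbol rule catches although its product is a nucleolar binding partner of RPS19 and no ribosomal protein. FAU and RACK1, which also encode ribosomal proteins, fall outside the rule and were followed separately.

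The study compared 3 cell lines with 3 libraries each: HCT8/DDP, selected under rising cisplatin and then kept in cisplatin, HCT8/5-Fu, selected under rising 5-fluorouracil and then kept in 5-fluorouracil, and HCT8, the drug-sensitive parental line of both, which comes from a human colorectal adenocarcinoma. The medium and serum were the same but only the resistant lines grew with a drug, so line and drug exposure cannot be told apart. Each resistant line is a single selected line, and nothing says that the libraries of a line came from separate cultures, so a p-value here speaks only of how these libraries vary, and that variation may be technical. Cisplatin crosslinks DNA, and 5-fluorouracil inhibits thymidylate synthase and is also built into RNA. The study enriched circular RNA with RNase R, an enzyme that degrades linear transcripts, and whether the messenger RNA counts come from such treated RNA was not given in the sources used here.

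A cytosolic ribosome holds 1 copy of nearly every ribosomal protein, so a growing cell makes these proteins in step with each other and with ribosomal RNA. Their messenger RNAs are abundant and short and belong to the TOP class: they begin with a cytosine followed by an unbroken run of pyrimidines, and this 5′ terminal tract lets the mTOR pathway, acting through LARP1, switch their translation on or off together without much change in the amount of RNA. Ribosomal proteins left over when ribosome assembly is disturbed, chiefly RPL5 and RPL11 in a complex with 5S ribosomal RNA, bind MDM2 and stabilise p53. RPS27L, a close paralog of RPS27, is a known p53 target gene in human cells.

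The first bases of the transcripts show how the members on which the results turn are built. Promoter sequences from RefSeq on build GRCh38.p14 were matched by symbol for 72 of the 91 members. The 12 shown here were picked by hand from the members called in a comparison and from paralogs. RPL21, RPL9 and RPS10 were called and matched too but are not shown, and of these RPL9 lacks the pyrimidine tract. Each line runs from 15 bases before the annotated transcription start to the 20th base of the transcript, on the strand of the gene, with the pyrimidine tract at the start in capitals where it met the TOP-like rule, which asked for a C at the first base and at least 4 more C or T directly after it.
RPS27 (chr1:153990747-153990781, plus strand): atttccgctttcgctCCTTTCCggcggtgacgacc
RPS27L (chr15:63157458-63157492, minus strand): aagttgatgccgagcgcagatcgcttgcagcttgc
RPSA (chr3:39406705-39406739, plus strand): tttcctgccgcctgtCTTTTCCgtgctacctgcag
RPL22 (chr1:6199576-6199610, minus strand): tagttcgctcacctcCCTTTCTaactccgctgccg
RPL22L1 (chr3:170870176-170870210, minus strand): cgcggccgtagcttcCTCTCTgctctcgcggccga
RPL14 (chr3:40457324-40457358, plus strand): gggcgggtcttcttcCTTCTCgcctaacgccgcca
RPL7L1 (chr6:42879601-42879635, plus strand): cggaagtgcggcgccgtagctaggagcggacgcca
RPL28 (chr19:55385917-55385951, plus strand): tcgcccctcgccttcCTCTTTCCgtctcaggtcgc
RPL31 (chr2:101002274-101002308, plus strand): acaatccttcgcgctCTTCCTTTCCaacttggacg
RPL26 (chr17:8383174-8383208, minus strand): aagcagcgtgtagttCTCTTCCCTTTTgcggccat
RPL26L1 (chr5:172958714-172958748, plus strand): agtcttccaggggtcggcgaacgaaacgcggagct
RPS16 (chr19:39435930-39435964, minus strand): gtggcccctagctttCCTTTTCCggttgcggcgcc

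Of the 3 sequence features searched, the tract was found in the most members. A TOP-like start stood in 49 of the 72 matched members (68.1%) and in 46 of the 62 matched core members (74.2%), beside 6.35% of all 14987 genes matched. Among the 6 matched paralogs only RPL22L1 had one, and RPS27L, RPL7L1 and RPL26L1 began with a G. Within the 250 bases before and 50 bases after the start, the letters CCGGAAG, the core of binding sites of ETS factors such as GABP, were found on either strand in 33.3% of the members and 16.7% of all genes, and CACGTG, the E-box that MYC binds, in 6.94% of the members and 11% of all genes. A match of letters describes the sequence and shows no binding.

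Expression was deposited as read counts and as FPKM, the fragments per kilobase of gene model, scaled to the library total. Counts were divided by the library total to give CPM, the usual scale on which to follow a gene between libraries, and levels of different genes were compared on FPKM only. The libraries held 19753035 to 28535882 counts, and the lowest totals belonged to replicate 1 of HCT8 and replicate 1 of HCT8/5-Fu. All 16 colorectal epithelial marker genes of the list used here were in the table. KRT8, KRT18, KRT19, CDH1 and EPCAM were high in every line, but other markers were low or differed between lines. GPA33 averaged at most 1.64 CPM in a line. KRT20 averaged 2.38 CPM in HCT8, 19.6 CPM in HCT8/DDP and 33.5 CPM in HCT8/5-Fu. ELF3 averaged 41.6, 19.4 and 20.5 CPM and ESRP1 56.6, 25.2 and 19.8 CPM in the same order. GRHL2, an epithelial transcription factor, had a mean of 100.2 CPM in HCT8. It had no count in HCT8/DDP and at most 1 count in a library of HCT8/5-Fu. Summed over the 9 leukocyte markers the level was 0.567 to 5.01 CPM in any library with PTPRC, CD3E and MS4A1 at 0, over the 8 fibroblast markers 6.85 to 14.1 CPM, and over the 6 endothelial markers 0.557 to 2.22 CPM with CLDN5 at 0.

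Core members were among the most abundant messenger RNAs by FPKM. Their median over the 9 libraries was 116.7 FPKM, against 6.23 FPKM for all genes tested, and 42 of the 77 ranked within the top 200 genes of the table and 62 within the top 1000. RPS2, RPS4X, RPL7A and RPS28 were among the highest, and all but RPL7A of these encode small subunit proteins. RPS2 had 664 ± 14.1 FPKM in HCT8/DDP, 627 ± 169 FPKM in HCT8/5-Fu and 763 ± 79.0 FPKM in HCT8 (SD, n = 3 each). RPS4X, the X-linked copy of RPS4, had 573 ± 16.1, 496 ± 98.4 and 599.7 ± 142 FPKM in the same order of lines. The libraries of these neighbours in the order overlapped in HCT8/5-Fu and HCT8, and in HCT8/DDP RPS2 was higher than RPS4X in every library.

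At the other end, RPS10 averaged 2.06 FPKM and was the lowest core member. A mean under 50 CPM was found for 8 core members, and 6 of these (among them RPL17, RPL26, RPL36A, RPS10 and RPS15A) overlap another gene of the table on the same strand, either a readthrough gene or a gene known only by a clone-based name. Only RPL22 and RPL36 had such a partner among the other 69 core members. Reads from shared exons cannot be assigned to a single gene, so the levels of these 8 genes are uncertain, and the readthrough genes RPL17-C18orf32, RPL36A-HNRNPH2 and RPS10-NUDT3 were at 0 in every library. The gene lengths in the table also join all annotated exons, with a median of 3002 bases for core members, which is longer than their mature messenger RNAs and lowers FPKM. Whether counting used the strand was not given in the sources used here, and several members have a gene on the opposite strand, among them RPS27L (LACTB), RPL28 (UBE2S), RPL31 (TBC1D8) and RPL22 (RNF207).

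**Figure D1:**
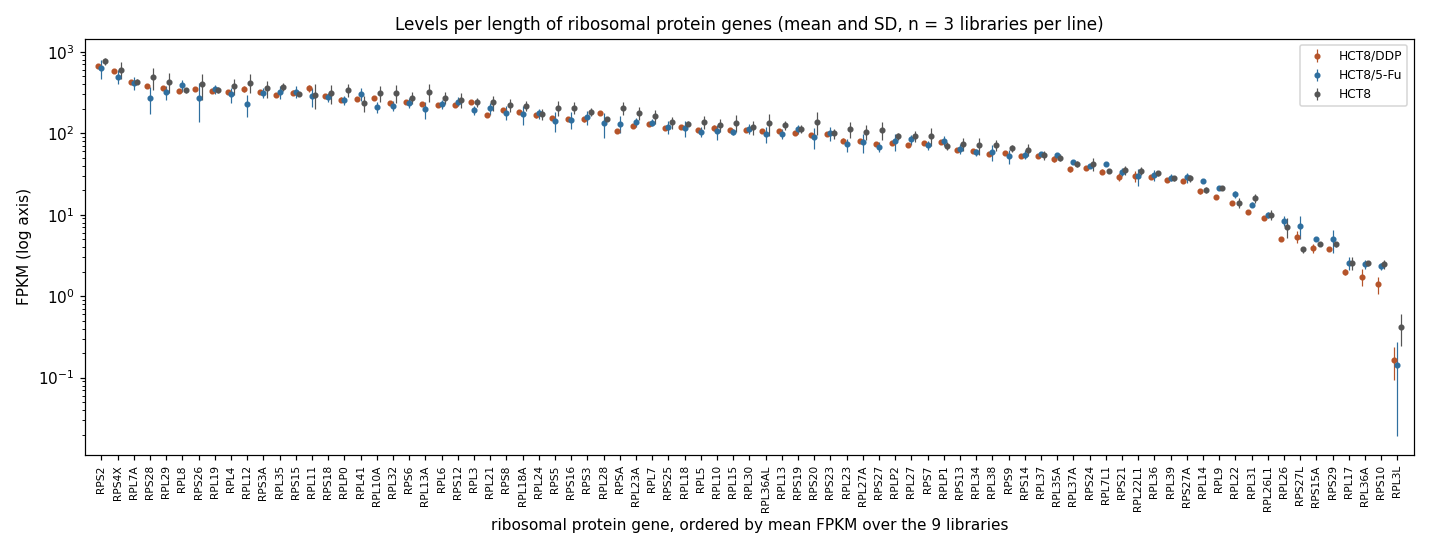
FPKM (log axis) of the core members reported here and the tested paralogs, ordered by their mean over the 9 libraries, with the mean and SD of 3 libraries per line. Core members run from 685 FPKM (RPS2) to 2.06 FPKM (RPS10), the 3 lines lie close together for most genes, and the paralog RPL3L stands at the right end.

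Together the 91 members took 3.58%, 3.72% and 3.60% of all counts in the HCT8/DDP libraries, 2.74%, 3.83% and 3.83% in the HCT8/5-Fu libraries, and 3.35%, 4.65% and 4.61% in the HCT8 libraries. The line means were 3.63 ± 0.0747% for HCT8/DDP, 3.46 ± 0.631% for HCT8/5-Fu and 4.20 ± 0.736% for HCT8 (SD, n = 3 each), and the range of HCT8 covered all 3 libraries of HCT8/DDP. Small subunit genes took 0.662 ± 0.00303 of the counts of large subunit genes in HCT8/DDP, 0.660 ± 0.0278 in HCT8/5-Fu and 0.687 ± 0.0160 in HCT8, so the balance of the subunits varied less between libraries than their share. In these bulk libraries a lower share of a gene family and a higher share of other RNA cannot be told apart. The 13 messenger RNAs encoded by mitochondrial DNA took 5.27 ± 0.609% of counts in HCT8/DDP, 3.35 ± 0.524% in HCT8/5-Fu and 6.16 ± 1.23% in HCT8.

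**Figure D2:**
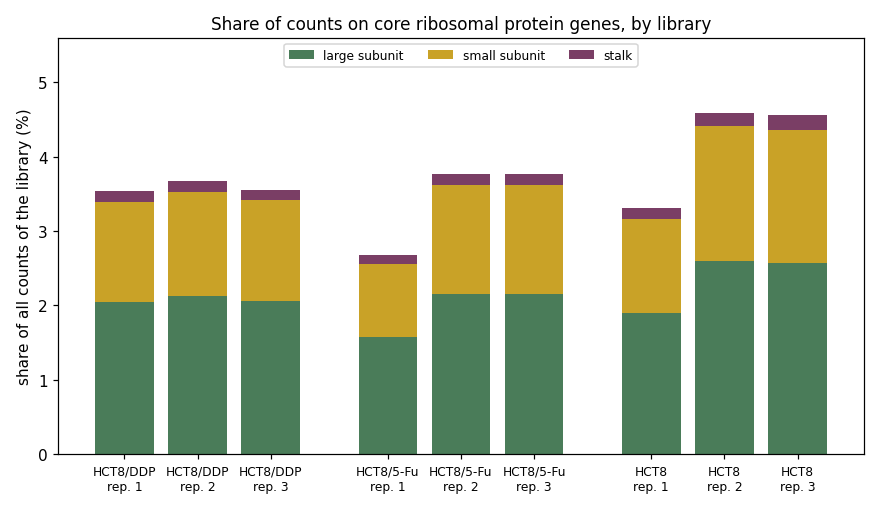
Share of all counts of each library (%) on core members, stacked by large subunit, small subunit and stalk. Replicate 1 is the lowest bar of HCT8/5-Fu (2.68%) and of HCT8 (3.31%), while the 3 bars of HCT8/DDP lie between 3.53% and 3.67%.

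Replicate 1 stood apart for this gene family in both HCT8/5-Fu and HCT8. Of the 84 members with enough counts to be tested, 71 (84.5%) had their lowest CPM of the line in HCT8/5-Fu replicate 1 and 73 (86.9%) in HCT8 replicate 1, beside 32.3% and 33.1% of all genes tested. In HCT8/DDP replicate 1 was the lowest for 35 members (41.7%), beside 29.6% of all genes. The median log2 ratio of replicate 1 to the mean of replicates 2 and 3 over the members was -0.02 in HCT8/DDP, -0.38 in HCT8/5-Fu and -0.40 in HCT8, and over all genes it was 0.01, 0.15 and 0.08. The members' median coefficient of variation was 4.25% in HCT8/DDP, 15% in HCT8/5-Fu and 16.7% in HCT8. Over all genes tested it was 8.69%, 15.9% and 11.7%, so the members varied more than all genes in HCT8 only. Replicate 1 of HCT8/5-Fu and replicate 1 of HCT8 were also the 2 libraries with the fewest counts. The part of depth or library preparation in their low ribosomal protein signal was not tested. The calls of members below are therefore given with these libraries and without them. The counts by TOP-like start and the counts for other gene lists are given with all libraries only.

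**Figure D3:**
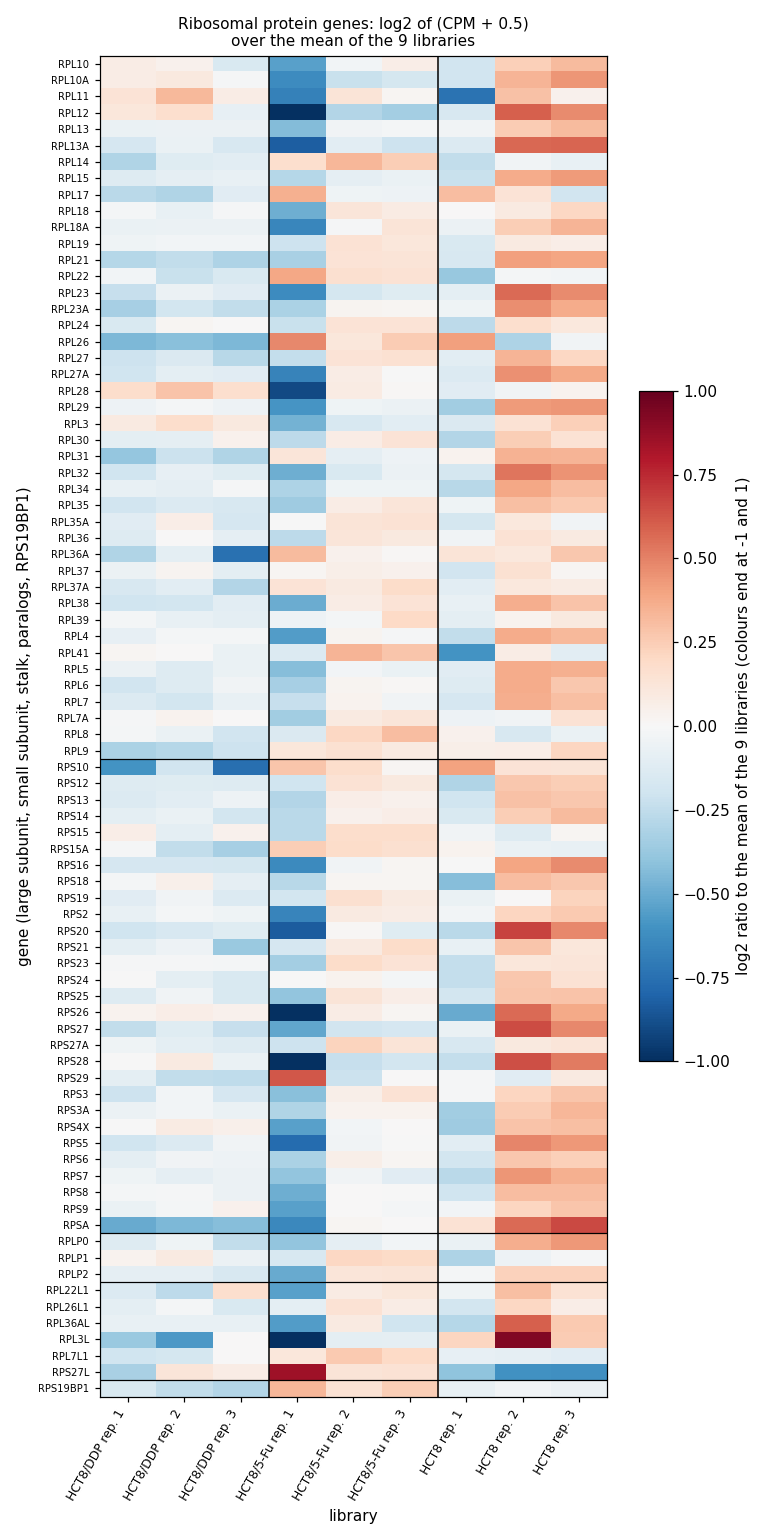
log2 of CPM + 0.5 of the tested members reported here in each library, relative to its mean over the 9 libraries, by subunit and paralog group; the colour scale ends at -1 and 1. The column of HCT8/5-Fu replicate 1 is blue for most genes, with RPS27L and RPS29 among the exceptions in red, and HCT8 replicates 2 and 3 are red for most genes.

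Genes were compared with edgeR's quasi-likelihood test on the counts of the 6 libraries of the 2 lines compared, with p-values adjusted by Benjamini and Hochberg over all genes tested. A gene was called at an adjusted p under 0.05, and a stricter rule also asked for a log2 fold change beyond 1. All comparisons with HCT8 share its 3 libraries. In each comparison 84 members were tested. RPL10L and RPL39L, paralogs known from testis, had no count in any library and were left out with the 3 readthrough and the 2 Y-linked genes.

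The first question was which ribosomal protein genes differed between 5-fluorouracil-resistant and parental cells. In HCT8/5-Fu against HCT8, 6 of the 84 members were higher and none was lower, while 20.4% of all 13228 genes were higher, 18.3% were lower and 38.7% were called in either direction. At an unadjusted p under 0.05 the counts were 6 higher and 2 lower members, and DESeq2 called 6 higher and 3 lower. The share of all genes at an unadjusted p under 0.05 is not given here or below, so no count at that cut is read as a result. The share of all genes for the lower DESeq2 calls is given further below. The 6 members called higher by edgeR were RPS27L, RPL14, RPL22, RPL7L1, RPS15A and RPS19BP1, and 3 of them are core members. Only RPS27L passed the stricter rule, beside 16.4% of all genes. The members' median log2 fold change was -0.08, beside 0.00 for all genes, and 75 of the 84 lay within 0.5 of 0, beside 58.5% of all genes.

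RPS27L was the member that differed most. It had 87.1, 52.7 and 53.2 CPM in HCT8/5-Fu, against 36.3, 31.4 and 31.2 CPM in HCT8. Every HCT8/5-Fu library lay above every HCT8 library, and replicate 1, low for most other members, was the highest. The log2 fold change was 1.05 (SE 0.17, adjusted p = 0.00133 by edgeR), and it stayed called whichever 1 of the 6 libraries was left out. RPS27 itself, a zinc-finger protein of the small subunit, had 59.8, 75.1 and 76.3 CPM in HCT8/5-Fu, against 81.7, 135 and 119.9 CPM in HCT8, and its log2 fold change of -0.57 (SE 0.22) was not called (adjusted p = 0.071).

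RPL14, a large subunit protein, had 212, 237 and 224 CPM in HCT8/5-Fu, against 159, 184 and 179.6 CPM in HCT8, which was higher by 0.47 on the log2 scale (SE 0.14, adjusted p = 0.0257 by edgeR). RPL22, a large subunit protein that also binds viral RNA, had 93.4, 79.6 and 78.8 CPM in HCT8/5-Fu, against 54.7, 70.3 and 69.9 CPM in HCT8, higher by 0.46 on the log2 scale (SE 0.14, adjusted p = 0.0266 by edgeR). Neither gene's libraries overlapped between the lines. RPL7L1, a paralog of RPL7 that takes part in assembly of the large subunit, had 311, 345 and 329.9 CPM in HCT8/5-Fu, against 272, 269.9 and 266 CPM in HCT8, higher by 0.40 on the log2 scale (SE 0.13, adjusted p = 0.0394 by edgeR). RPS15A rose by 0.34 (SE 0.11, adjusted p = 0.0402 by edgeR), with 35.1, 33.5 and 33.0 CPM in HCT8/5-Fu, against 30.2, 28.1 and 27.9 CPM in HCT8, and it is one of the genes overlapped on its own strand. RPS19BP1 had 40.0, 35.2 and 37.7 CPM in HCT8/5-Fu, against 30.1, 31.1 and 30.5 CPM in HCT8 (log2 fold change 0.40). Each of these 5 calls was lost without some single library, with adjusted p-values of up to 0.157.

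Among members above 10 CPM the largest decreases were not called. RPL12, a protein at the base of the stalk, had 362, 661 and 642 CPM in HCT8/5-Fu, against 725.5, 1226.5 and 1127 CPM in HCT8. The libraries of the lines did not overlap, and the log2 fold change of -0.77 (SE 0.31) had an adjusted p of 0.0774 by edgeR. RPS28, a small subunit protein, had 327, 689 and 711.5 CPM in HCT8/5-Fu, against 682, 1259 and 1159 CPM in HCT8, with a log2 fold change of -0.72 (adjusted p = 0.143). Counting members whose libraries did not overlap in CPM at all gave 6 higher and 5 lower, beside 21.1% and 30.4% of all genes. The CPM scale itself was shifted, because scaling by library totals in place of TMM factors moved the median of all genes by -0.10 in this comparison and by -0.12 in HCT8/DDP against HCT8.

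Leaving out replicate 1 of both lines changed the counts more than any other setting. In this setting, added after the data had been seen, 21 members were higher and 34 lower among the 2 remaining libraries per line, beside 36.1% and 36.9% of all genes, and the members' median log2 fold change was -0.05. RPL12 fell by 0.71, RPS28 by 0.65 and RPS27 by 0.61, and RPL8 rose by 0.51, RPL26 by 0.50 and RPL41 by 0.46 on the log2 scale, each with an adjusted p of at most 1.35e-04 by edgeR. Replicates 2 and 3 were far closer to each other than to replicate 1. Their chi-square per gene was 4.53 in HCT8 and 4.95 in HCT8/5-Fu, against 40.8 to 92 for pairs with replicate 1. The p-values of this setting thus speak only of that narrow spread. Without HCT8 replicate 1 alone the members' median was -0.24 with 4 members lower, beside 18.3% of all genes, and without HCT8/5-Fu replicate 1 alone it was 0.08 with 11 higher and none lower, beside 28.5% and 27.7% of all genes. The direction of the family as a whole between these lines thus depended on which replicate 1 was kept.

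The second question was the same for cisplatin-resistant cells. In HCT8/DDP against HCT8, 2 of the 84 members were higher and 9 lower, while 27% of all 13373 genes were higher, 25.5% lower and 52.5% called in either direction. RPS27L and RPL28 were higher. RPSA, RPS10, RPS27, RPL31, RPL23A, RPL21, RPS16, RPL9 and RPL3L were lower, and RPL3L alone passed the stricter rule, beside 16.2% of all genes. The median log2 fold change was -0.11 for the members and -0.01 for all genes, and 63 of the 84 members had a negative value, 14 of them at an unadjusted p under 0.05. The shares of all genes with a negative value, or lower at that unadjusted p, are not given, so neither count is read as a result about the members. The libraries did not overlap for 2 higher and 21 lower members, beside 23% and 38.2% of all genes.

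RPSA, the small subunit protein SA that is also known as the laminin receptor precursor, had the smallest adjusted p among the members that were lower. It had 407, 422 and 429.5 CPM in HCT8/DDP, against 638, 857 and 913 CPM in HCT8. The highest HCT8/DDP library lay well below the lowest HCT8 library. The log2 fold change was -0.82 (SE 0.14, adjusted p = 3.34e-04 by edgeR) and between -0.98 and -0.71, and called, whichever 1 library was left out. In HCT8/5-Fu the gene had 369.9, 585 and 579 CPM, also below every HCT8 library, with a log2 fold change against HCT8 of -0.53 (SE 0.25) that was not called (adjusted p = 0.123).

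RPS27L had 38.3, 52.4 and 50.8 CPM in HCT8/DDP, against 36.3, 31.4 and 31.2 CPM in HCT8. The lines were separated by a small gap, with replicate 1 the lowest HCT8/DDP library and the highest HCT8 library. The log2 fold change was 0.64 (SE 0.13, adjusted p = 0.00105 by edgeR), called whichever 1 library was left out. RPL28, a large subunit protein without a bacterial counterpart, had 1196, 1292 and 1192 CPM in HCT8/DDP, against 979.7, 1035 and 1085 CPM in HCT8, higher by 0.36 on the log2 scale (SE 0.11, adjusted p = 0.0121 by edgeR). Its libraries did not overlap either, but the call was lost without HCT8/DDP replicate 2 (adjusted p = 0.0587).

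RPS27 had 72.2, 79.0 and 73.2 CPM in HCT8/DDP, against 81.7, 135 and 119.9 CPM in HCT8, a difference of -0.47 on the log2 scale (SE 0.16, adjusted p = 0.024 by edgeR). RPL31, a large subunit protein at the exit of the peptide tunnel, had 53.8, 60.7 and 57.3 CPM in HCT8/DDP, against 72.4, 90.03 and 89.2 CPM in HCT8, and its log2 fold change of -0.44 (SE 0.11, adjusted p = 0.00626 by edgeR) stayed called whichever 1 library was left out. RPL23A, which sits beside the tunnel exit and binds the signal recognition particle, fell by 0.42, RPL21 by 0.40, RPS16 by 0.36 and RPL9 by 0.27 on the log2 scale, with adjusted p-values of 0.0199 to 0.0363 by edgeR. The calls of RPS27, RPL23A, RPL21 and RPS16 each held without HCT8 replicate 1 and were lost without any other single library, and that of RPL9 held without HCT8 replicate 1 or HCT8/DDP replicate 3 only, with adjusted p-values of up to 0.164 by edgeR. RPS16 was even across HCT8/DDP, with 396, 395 and 394 CPM, against 443, 584 and 617 CPM in HCT8. RPS10, at 2.96, 4.08 and 2.61 CPM in HCT8/DDP and 6.43, 5.26 and 5.25 CPM in HCT8, and RPL3L, a paralog of RPL3 known from striated muscle that stayed under 2 CPM in every library, were low genes with little weight, and both calls were lost without most single libraries (adjusted p up to 0.285 by edgeR).

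Without HCT8 replicate 1, 49 members were lower and 2 higher in HCT8/DDP, beside 28.8% and 30.2% of all genes, and 74 of 84 members had a negative log2 fold change with a median of -0.25. The share of all genes with a negative value in that fit is not given. RPSA (-0.98), RPS27 (-0.67), RPS20 (-0.65) and RPL13A (-0.62) then had the largest decreases among members above 10 CPM. Leaving out any other single library gave 2 to 4 lower members, beside 20.3% to 22% of all genes. How many ribosomal protein genes were lower in HCT8/DDP thus depended on 1 parental library, while RPSA and RPL31 were lower and RPS27L was higher in every one of these fits.

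**Figure D4:**
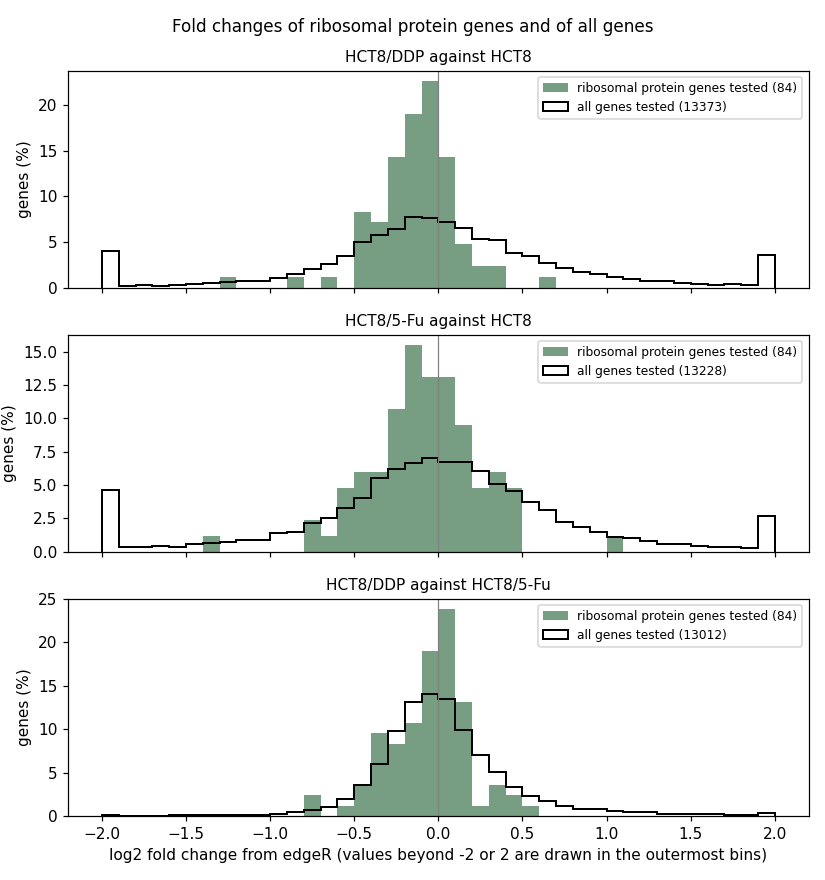
Distribution of log2 fold changes from edgeR of the 84 tested members (filled) and of all genes tested (line), in percent of each set, for the 3 comparisons. The members lie close to 0 with medians of -0.11, -0.08 and -0.05 from top to bottom, and only RPS27L in HCT8/5-Fu against HCT8 lies above 1.

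The resistant lines were also compared with each other. In HCT8/DDP against HCT8/5-Fu no member was higher and 1 was lower, while 2.27% of all 13012 genes were called, 1.51% higher and 0.753% lower, and 0.661% passed the stricter rule. At an unadjusted p under 0.05 there were 2 higher and 11 lower members, and DESeq2 called none higher and 9 lower. Again the share of all genes at that unadjusted p is not given, and the share for the lower DESeq2 calls is given further below. The gene called was RPL26, a large subunit protein at the tunnel exit, also known to bind the 5′ untranslated region of p53 messenger RNA. It had 12.3, 12.5 and 12.2 CPM in HCT8/DDP, against 23.8, 18.4 and 20.4 CPM in HCT8/5-Fu, and 22.7, 13.6 and 16.5 CPM in HCT8. HCT8/DDP lay below all other libraries. The log2 fold change between the resistant lines was -0.75 (SE 0.13, adjusted p = 0.0361 by edgeR), but another gene of the annotation overlaps RPL26 on its strand and the call was lost when any 1 library other than HCT8/5-Fu replicate 1 was left out (adjusted p up to 0.235), settings in which edgeR called no gene of the table.

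RPS27L was 38.3, 52.4 and 50.8 CPM in HCT8/DDP and 87.1, 52.7 and 53.2 CPM in HCT8/5-Fu, and the log2 fold change of -0.43 (SE 0.19) was not called (adjusted p = 0.24). RPL14, RPL22, RPL7L1 and RPS15A, called in HCT8/5-Fu against HCT8, were each lower in all 3 HCT8/DDP libraries than in any HCT8/5-Fu library, with log2 differences of -0.43, -0.36, -0.32 and -0.39 and adjusted p-values of 0.0783 to 0.189. RPL12 had 875, 911.5 and 766 CPM in HCT8/DDP, against 362, 661 and 642 CPM in HCT8/5-Fu (log2 difference 0.60, adjusted p = 0.22). Libraries did not overlap for 5 higher and 14 lower members, beside 14.2% and 13.7% of all genes. Without HCT8/5-Fu replicate 1, 39 members were lower and 2, RPL3 and RPL12, were higher in HCT8/DDP, beside 15.9% and 13.9% of all genes, with a median of -0.22, and without any other single library no member was called.

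**Figure D5:**
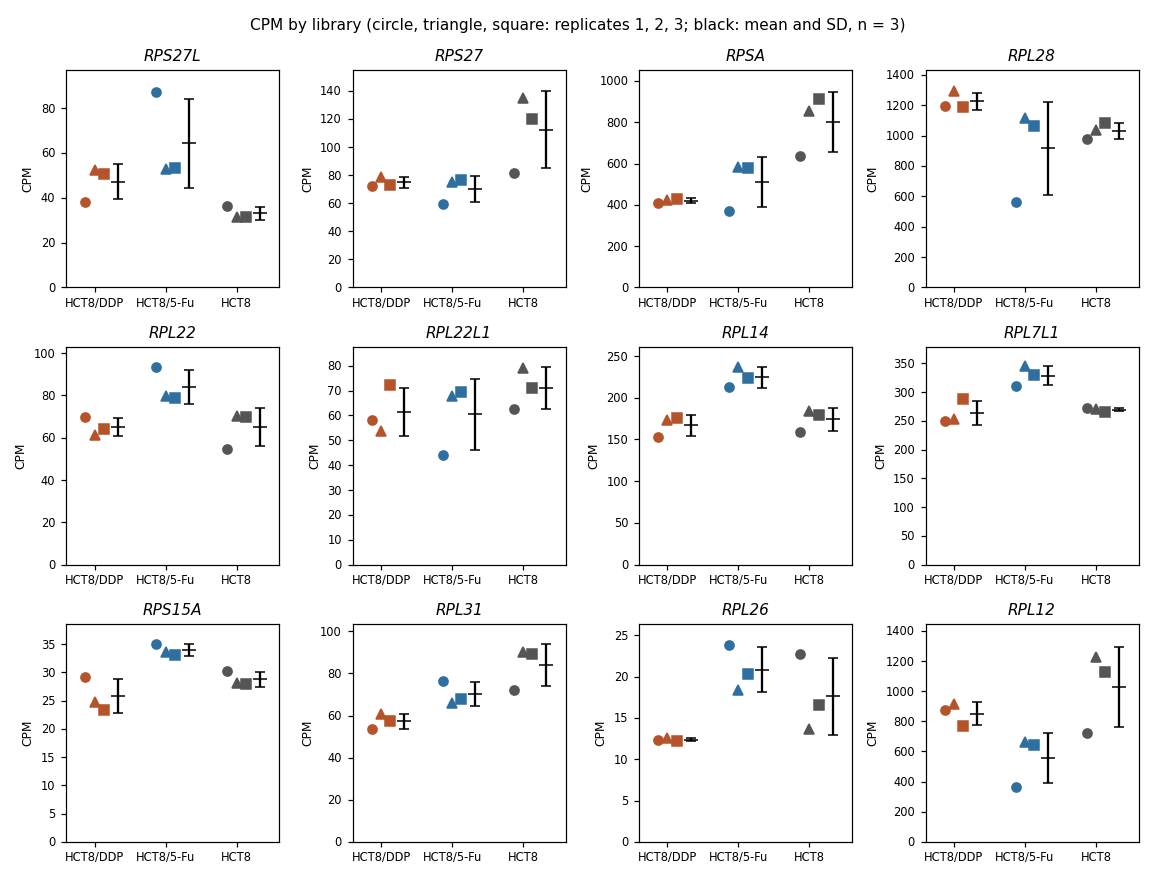
CPM of 12 members in each library, from an axis that starts at 0, with replicates 1, 2 and 3 as circle, triangle and square and the mean and SD of 3 libraries in black. RPS27L has its lowest mean in HCT8 (33.0 ± 2.87 CPM), and RPSA (419.7 ± 11.4 CPM) and RPL26 (12.4 ± 0.154 CPM) have theirs in HCT8/DDP.

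Members known for roles outside or at the edge of the ribosome were followed whatever their values. RPL5 and RPL11, which bind 5S ribosomal RNA and MDM2, were not called in any comparison by the main fit. That fit was edgeR with TMM factors on all 6 libraries, without a block for the replicate number. With the block RPL11 was called higher in HCT8/DDP against HCT8 (log2 fold change 0.43, adjusted p = 0.0441 by edgeR). RPL5 had 412, 393 and 411 CPM in HCT8/DDP, 319.9, 423 and 410.3 CPM in HCT8/5-Fu, and 397, 556 and 549.5 CPM in HCT8. It fell by 0.35 in HCT8/DDP against HCT8 without HCT8 replicate 1 (adjusted p = 6.09e-04 by edgeR) and by 0.27 in HCT8/5-Fu against HCT8 without replicate 1 of both lines (adjusted p = 1.61e-06 by edgeR). RPL11 had 914, 1040.5 and 876 CPM in HCT8/DDP, 521, 910.3 and 841 CPM in HCT8/5-Fu, and 497, 1020.5 and 858 CPM in HCT8, and without HCT8 replicate 2 it was higher in HCT8/DDP by 0.60 on the log2 scale (adjusted p = 0.0241 by edgeR). RPS6, the target of the S6 kinases, averaged 645 ± 14.5 CPM in HCT8/DDP, 641 ± 87.0 CPM in HCT8/5-Fu and 732 ± 122 CPM in HCT8 (SD, n = 3 each), and the lines overlapped. RPS19, the gene most often mutated in Diamond-Blackfan anaemia, averaged 352 ± 13.5, 385 ± 46.8 and 393 ± 42.5 CPM in the same order. RPS26, another gene of that disease, had 714, 732.5 and 719 CPM in HCT8/DDP, 239, 738 and 708 CPM in HCT8/5-Fu, and 494, 1037 and 908 CPM in HCT8, with replicate 1 far below the others in HCT8/5-Fu and HCT8. The stalk genes RPLP0, RPLP1 and RPLP2, whose products recruit the translation factors, were not called by the main fit either. Other settings with all libraries called some of them. In HCT8/DDP against HCT8 these were RPLP0 and RPLP2 with library totals (adjusted p = 0.0225 and 0.0319 by edgeR) and RPLP1 with DESeq2 (adjusted p = 0.0488). In HCT8/5-Fu against HCT8 it was RPLP0 with the block (adjusted p = 0.0447 by edgeR). In HCT8/DDP and HCT8/5-Fu against HCT8, RPLP1 had log2 fold changes of 0.26 and 0.32, RPLP0 of -0.29 and -0.31 and RPLP2 of -0.15 and -0.09, with adjusted p-values of 0.0634 to 0.758 by edgeR. Without HCT8 replicate 1, RPLP0 fell by 0.44 and RPLP2 by 0.25 in HCT8/DDP (adjusted p = 1.27e-04 and 0.00653 by edgeR). Without replicate 1 of both lines, RPLP0 fell by 0.32 and RPLP1 rose by 0.37 in HCT8/5-Fu against HCT8 (adjusted p = 8.22e-09 and 1.64e-10 by edgeR), and without HCT8/5-Fu replicate 1, RPLP1 fell by 0.24 and RPLP2 by 0.30 in HCT8/DDP against HCT8/5-Fu (adjusted p = 0.0239 and 0.00639 by edgeR). By the same fits without HCT8 replicate 1, RPS6 fell by 0.22 and RPS26 by 0.33 in HCT8/DDP, and without replicate 1 of both lines RPS19 rose by 0.15 and RPS26 fell by 0.29 in HCT8/5-Fu against HCT8.

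Paralog pairs were compared by the ratio of their FPKM values in each library. RPS27L over RPS27 was 0.0618, 0.0773 and 0.0807 in HCT8/DDP, 0.170, 0.0817 and 0.0811 in HCT8/5-Fu, and 0.0517, 0.0271 and 0.0303 in HCT8. Both resistant lines lay above every HCT8 library, by 1.06 in HCT8/DDP and by 1.57 in HCT8/5-Fu on the log2 scale (two-sided exact permutation p = 0.1 for each, the smallest value that 3 against 3 libraries can give). RPS27 stayed the more abundant of the pair in every library. RPL22L1 was the more abundant of its pair by FPKM, with a ratio to RPL22 of 2.15 ± 0.357 in HCT8/DDP, 1.67 ± 0.52 in HCT8/5-Fu and 2.49 ± 0.155 in HCT8 (SD, n = 3 each). This order rests on the gene lengths of the table, because by mean CPM RPL22 was the higher (71.3 against 64.2 CPM). RPL7L1 over RPL7 was 0.26 ± 0.0121, 0.312 ± 0.014 and 0.22 ± 0.048 in the same order, with HCT8/5-Fu above both other lines in every library. RPL36AL exceeded RPL36A by a ratio of 64.4 ± 16.6 in HCT8/DDP, 40.4 ± 12.5 in HCT8/5-Fu and 52.5 ± 16.8 in HCT8, and RPL26L1 exceeded RPL26 in all but 2 libraries. RPL36A, RPL26 and RPL22 are among the genes overlapped on their own strand, which limits the ratios of these pairs. Over the 5 pairs and 3 comparisons tested, no exact test could go below its floor of 0.1, so these tests cannot decide at 0.05.

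Members with and without a TOP-like start were also counted separately. In HCT8/5-Fu against HCT8, 2 of 47 tested members with the tract (4.26%) and 2 of 20 without it (10%) were called, beside 38.7% of all genes, with medians of -0.07 and -0.16 on the log2 scale. In HCT8/DDP against HCT8, 7 of 47 and 2 of 20 were called, beside 52.5% of all genes, with medians of -0.11 and -0.09, and in HCT8/DDP against HCT8/5-Fu 1 of 47 and 0 of 20, beside 2.27%, with medians of -0.07 and 0.00. The difference between members with and without the tract was not tested. Of 23 other TOP messenger RNAs tested, 1 was higher and 2 lower in HCT8/5-Fu against HCT8 (13% called, median -0.09), 4 were higher and 4 lower in HCT8/DDP against HCT8 (34.8% called, median -0.06), and none was called between the resistant lines (median 0.06, 3 at an unadjusted p under 0.05). EEF2, the translocation factor, had 2947, 2923 and 2751 CPM in HCT8/DDP, against 2140, 2045 and 2100 CPM in HCT8 (log2 fold change 0.57, adjusted p = 7.2e-04 by edgeR). VIM, the intermediate filament gene of mesenchymal cells, had 69.1, 59.4 and 64.0 CPM in HCT8/DDP, against 0.557, 1.46 and 0.811 CPM in HCT8. EIF3E, a subunit of the initiation factor eIF3, had 366, 425 and 428 CPM in HCT8/5-Fu, against 564, 795 and 747 CPM in HCT8. FAU and RACK1 were called in none of the 3 comparisons, and neither reached an unadjusted p under 0.05.

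The genes that build the ribosome were counted against all genes as well. Among 77 tested ribosome biogenesis factors, 30 were higher and 2 lower in HCT8/5-Fu against HCT8, which is 39% and 2.6%, beside 20.4% and 18.3% of all genes. Their median log2 fold change was 0.40, beside 0.00 for all genes, and the 77 core members gave 3 higher and 0 lower. No test of the difference between the lists was run. Replicate 1 stood apart for this list as well. Its summed level in HCT8 was 8460 CPM in replicate 1, against 6965 and 6950 CPM in replicates 2 and 3. In HCT8/5-Fu it was 8535 CPM, against 9706 and 9648 CPM. The counts without these libraries are not given. NIP7, a factor of ribosomal RNA processing, had 62.2, 60.4 and 61.3 CPM in HCT8/5-Fu, against 32.9, 30.8 and 31.6 CPM in HCT8 (log2 fold change 1.06, SE 0.11, adjusted p = 1.29e-04 by edgeR). RRP12 had 133.9, 146 and 153 CPM in HCT8/5-Fu, against 79.4, 43.6 and 43.7 CPM in HCT8 (log2 fold change 1.5), and PDCD11 rose by 1.06. In HCT8/DDP against HCT8 15 biogenesis factors were higher and 13 lower of 78 (19.2% and 16.7%, median 0.00), below the 27% and 25.5% of all genes. The lower ones included FBL, the methyltransferase of box C/D snoRNPs, with 163, 144 and 162 CPM in HCT8/DDP, against 281, 258 and 261 CPM in HCT8 (log2 fold change -0.65, adjusted p = 7.22e-05 by edgeR), and NOP58, its partner, which fell by 0.53. In HCT8/DDP against HCT8/5-Fu 7 were lower and none higher of 78 (8.97% lower, beside 0.753% of all genes), with a median of -0.40, and RRP12 fell by 0.69 (adjusted p = 0.0385 by edgeR).

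The other lists of the pathway were described in the same way, each share of called genes to be read against 38.7% of all genes in HCT8/5-Fu against HCT8, 52.5% in HCT8/DDP against HCT8 and 2.27% in HCT8/DDP against HCT8/5-Fu. Of 32 genes of RNA polymerases I and III and their factors, 8 were higher and 0 lower in HCT8/5-Fu against HCT8 (25% called, median 0.28), 2 were higher and 5 lower in HCT8/DDP against HCT8 (21.9% called, median -0.02), and 0 were higher and 2 lower between the resistant lines (6.25% called, median -0.25). POLR1B, the second largest subunit of polymerase I, had 76.4, 74.99 and 90.5 CPM in HCT8/DDP, 127, 123 and 122 CPM in HCT8/5-Fu, and 103, 82.6 and 75.1 CPM in HCT8. Of 37 translation initiation factors, 10 were higher and 2 lower in HCT8/5-Fu against HCT8 (32.4% called, median 0.18), 6 were higher and 5 lower in HCT8/DDP against HCT8 (29.7% called, median 0.03), and none was called between the resistant lines, where 11 had an unadjusted p under 0.05. EIF2S1, the alpha subunit of eIF2, had 227.4, 230.8 and 262.6 CPM in HCT8/DDP, 300.1, 324 and 302 CPM in HCT8/5-Fu, and 176, 163 and 163 CPM in HCT8, and was called higher in both resistant lines. Of 16 chaperones and importers of ribosomal proteins, 4 were higher and 1 lower in HCT8/5-Fu against HCT8 (31.2% called, median 0.21), 1 was higher and 4 lower in HCT8/DDP against HCT8 (31.2% called, median -0.04), and 0 were higher and 2 lower between the resistant lines (12.5% called, median -0.30). IPO9, an importin, fell by 0.73 in HCT8/5-Fu and by 0.51 in HCT8/DDP against HCT8 on the log2 scale.

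Of 19 regulators of ribosomal protein synthesis, 5 were higher and 2 lower in HCT8/5-Fu against HCT8 (36.8% called, median 0.30) and 7 were higher and 3 lower in HCT8/DDP against HCT8 (52.6% called, median 0.12), while of the 18 tested between the resistant lines none was called and 3 had an unadjusted p under 0.05. MTOR itself had 359.98, 377 and 383 CPM in HCT8/DDP, 349, 344 and 345 CPM in HCT8/5-Fu, and 235, 175 and 179 CPM in HCT8, with log2 fold changes against HCT8 of 1.05 and 0.93. CDKN1A, the p53 target that encodes p21, had 352, 505 and 554 CPM in HCT8/DDP, 1045, 449 and 492 CPM in HCT8/5-Fu, and 160.3, 70.5 and 79.7 CPM in HCT8. Its log2 fold changes against HCT8 were 2.32 in HCT8/DDP and 2.77 in HCT8/5-Fu. As for RPS27L, replicate 1 was lowest in HCT8/DDP and highest in HCT8/5-Fu and HCT8. Replicates 2 and 3 of HCT8/DDP stood in the other order than for RPS27L. MDM2 had 351, 482 and 597.5 CPM in HCT8/DDP, 1461, 604 and 567 CPM in HCT8/5-Fu, and 385, 169 and 164 CPM in HCT8, with replicate 1 in the same places. The share of all genes with replicate 1 in these places was not counted, and a shared cause was not tested.

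Mitochondrial ribosomal proteins, which are encoded by nuclear genes and form the separate ribosome of mitochondria, gave 9 higher and 3 lower of 76 in HCT8/5-Fu against HCT8 (15.8% called, median 0.09), 6 higher and 18 lower of 76 in HCT8/DDP against HCT8 (31.6% called, median -0.12), and 0 higher and 1 lower of 77 between the resistant lines (1.3% called, median -0.21). The 23.7% that were lower in HCT8/DDP against HCT8 stood beside 25.5% of all genes. MRPL48 had 12.1, 13.2 and 13.03 CPM in HCT8/DDP, 13.2, 12.5 and 12.7 CPM in HCT8/5-Fu, and 22.0, 24.9 and 27.1 CPM in HCT8. Of the 13 messenger RNAs of mitochondrial DNA, 9 were lower and none higher in HCT8/5-Fu against HCT8 (69.2% lower, beside 18.3% of all genes, median -0.89), 5 were lower and none higher in HCT8/DDP against HCT8 (38.5% lower, beside 25.5% of all genes, median -0.32), and 1, MT-ATP6, was higher in HCT8/DDP against HCT8/5-Fu (median 0.53). Of the marker lists, 7 of 16 colorectal epithelial markers were higher and 3 lower in each resistant line against HCT8 (62.5% called), with medians of 0.33 in HCT8/DDP and 0.11 in HCT8/5-Fu, and none of 15 was called between the resistant lines (5 at an unadjusted p under 0.05). Among the few other markers with enough counts to test, CD14 was lower in both resistant lines against HCT8, PDGFRB was higher in HCT8/DDP against HCT8, and COL1A1 and VWF were called in neither.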

How the data were processed

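The study's methods state that total RNA was depleted of ribosomal RNA and, for circular RNA, treated with RNase R, and that the libraries marked strand; the submitters' processing notes name HISAT2, DESeq2 and the mouse build mm9, although the cells are human, so coordinates of the table served only to find overlapping genes. The authors deposited, for each gene and library, raw read counts and FPKM; the FPKM values equalled count over gene length and column total within a relative difference of 5.09e-15. Of the 4 deposited tables, only that of messenger RNAs was used. The counting tool was not given in the sources used here.

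Counts of the 6 libraries of each comparison (3 per line) were filtered with filterByExpr, scaled with TMM factors and tested with edgeR 4.0.16 (R 4.3.3; SE = log2 fold change over the root of F). Alternatives were DESeq2 1.42.0, library totals, TMM factors from non-members, no filter, all 9 libraries in 1 fit, a replicate block, a log2 fold change beyond 1, and leaving out each library; leaving out replicate 1 of both lines was added after the data had been seen. The scripts were tested on simulated data. The members and gene lists were chosen with earlier results of these data known. Named genes were up to 8 called members per direction and comparison with the largest change, at least 10 CPM in the higher line and no overlap of libraries, together with paralog pairs, stalk, 5S complex and disease genes, the 5 highest by FPKM, and up to 3 genes of smallest p per list. Others were named after their values were seen. With 19753035 counts or more per library, counting error is small for the 69 of 77 core members with a mean of at least 50 CPM. It is larger for low ones such as RPS10, and intervals cover no preparation error. A few genes are not reported here.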

Additional observations from a re-analysis of the deposited data

Results flagged for a closer look

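By edgeR with all 6 libraries of the resistant lines, RPL26 was the only member whose difference between these lines, each set against the same 3 HCT8 libraries, passed a test of that difference itself: its log2 fold change in HCT8/DDP against HCT8/5-Fu was -0.75, from -0.38 in HCT8/DDP against HCT8 and 0.35 in HCT8/5-Fu against HCT8, neither of which was called. DESeq2 called 9 members and TMM factors from non-members 2. The call of RPL26 was lost without any single library other than HCT8/5-Fu replicate 1 (adjusted p up to 0.235 by edgeR) and with the replicate block (adjusted p = 0.116 by edgeR).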

How the results depend on the processing

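In the counts below, the share of all genes called in that direction under the same setting stands in parentheses. For HCT8/5-Fu against HCT8, the 6 higher members (20.4%) became 2 with library totals (15.4%), 21 without replicate 1 of both lines (36.1%), 1 with the log2 fold change beyond 1 (7.51%) and 1 to 11 without single libraries (12.9% to 28.5%), and the 0 lower members (18.3%) became 3 with DESeq2 (21.2%), 5 with library totals (21.9%), 2 with all 9 libraries in 1 fit (21.4%), 34 without replicate 1 of both lines (36.9%) and 0 to 4 without single libraries (11.5% to 27.7%). For HCT8/DDP against HCT8, the 2 higher members (27%) became 1 with all 9 libraries (22.7%), 0 with the log2 fold change beyond 1 (8.8%) and 1 to 4 without single libraries (22.5% to 30.2%), and the 9 lower members (25.5%) became 24 with library totals (33%), where the median of all genes also moved by -0.12, 3 with all 9 libraries (19.3%), 1 with the log2 fold change beyond 1 (7.37%) and 2 to 49 without single libraries (20.3% to 28.8%). For HCT8/DDP against HCT8/5-Fu, the 0 higher members (1.51%) became 0 to 2 without single libraries (0% to 13.9%), and the 1 lower member (0.753%) became 9 with DESeq2 (4.3%), 2 with TMM factors from non-members (0.745%), 2 with all 9 libraries (1.36%), 0 with the log2 fold change beyond 1 (0.131%) and 0 to 39 without single libraries (0% to 15.9%). The cause was not tested.

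Same-numbered libraries did not pair at the correlation threshold of 0.1: their deviations correlated at -0.189 to 0.0973. For the members, however, replicate 1 deviated alike in HCT8/5-Fu and HCT8. Their median log2 ratios of replicate 1 to the mean of replicates 2 and 3 were -0.38 and -0.40. With the replicate block 13 members (17.3% of all genes) were lower in HCT8/5-Fu against HCT8 and 0 (0%) in HCT8/DDP against HCT8/5-Fu. Members higher in HCT8/5-Fu against HCT8 with the block included RPL14, RPL41, RPL7L1 and RPL22 (adjusted p = 0.0158 to 0.0473 by edgeR). In HCT8/DDP against HCT8 with the block, RPSA and RPL31 stayed called lower and RPS27L and RPL28 higher. The other counts with the block are not given.

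Of the 84 members, RPL28 turned direction in HCT8/5-Fu against HCT8, with 0.18 (adjusted p = 9.65e-04 by edgeR) without replicate 1 of both lines, RPS18 in HCT8/DDP against HCT8, with -0.21 (adjusted p = 0.0188 by edgeR) without HCT8 replicate 1, and 3 members in HCT8/DDP against HCT8/5-Fu without HCT8/5-Fu replicate 1, RPS16 with -0.23 (up to 0.14 without others), RPL27A with -0.23 and RPL18 with -0.20 (adjusted p = 0.0242, 0.0285 and 0.0461 by edgeR); a change of sign between values that were both not called was not counted. Without mitochondrial messenger RNAs the mean share of counts on members was 3.84% in HCT8/DDP, 3.59% in HCT8/5-Fu and 4.49% in HCT8, so the order of the line means stayed the same. The order of the resistant lines rested on HCT8/5-Fu replicate 1 (2.81%). Replicates 2 and 3 of HCT8/5-Fu (3.97% and 3.98%) lay above every HCT8/DDP library (3.77% to 3.95%). HCT8 replicate 1 (3.52%) lay below every HCT8/DDP library. For 39 named genes, 441 of 507, 403 of 468 and 436 of 468 values kept direction and call, in the order of comparisons above.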
